A study of Mus musculus with 8 samples.

Results

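The genes *mt-Ti*, *mt-Tq* and *mt-Tm* encode the mitochondrial tRNAs that carry isoleucine, glutamine and methionine. They lie side by side in mouse mtDNA, between the genes of the complex I subunits *mt-Nd1* and *mt-Nd2*. They are defined by name and position and are 3 of 54531 features in the deposited table of short RNAs, 3 of its 36 mitochondrial features and 3 of its 22 mitochondrial tRNAs. All 3 had a value in both genotypes, and no filter on low values was applied to them.

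Short RNAs were sequenced from hearts of C57BL/6 mice aged 24 weeks, with 4 RNase H1-/- libraries (knockout) and 4 RNase H1+/+ libraries (wild type). In the knockout, a Cre driven by the promoter of muscle creatine kinase (Ckmm-cre) deletes part of a loxP-flanked *Rnaseh1* gene in heart and skeletal muscle, and heart cells in which this promoter is silent would keep the gene. The labels call the controls +/+ and wild type, whereas the heart controls of the study are described as animals with loxP alleles and no Cre. The labels give heart tissue as the RNA source, whereas the methods of the study name isolated heart mitochondria for the short RNAs, and which of them was used is not settled here.

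Transcription of mtDNA yields long precursor RNAs from both strands, in which tRNAs lie between and beside the mRNAs and rRNAs. RNase P cuts the precursor at the 5′ end of each tRNA and the RNase Z enzyme Elac2 at its 3′ end, so that release of the tRNAs also frees the flanking mRNAs, after which Trnt1 adds the CCA tail. RNase H1 cuts RNA that is paired with DNA and takes part in removing the RNA primers of mtDNA replication. Of the 3 tRNAs, the one for methionine serves both initiation, after formylation by Mtfmt, and elongation, and Nsun3 and Alkbh1 modify the wobble base of its anticodon. Glutaminyl-tRNA in mitochondria is made by way of a glutamate-charged tRNA, which the Qrsl1, Gatb and Gatc complex converts.

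The gene sequences are shown because the reads of the 3 tRNAs were told apart by them. They were taken from GENCODE release M21 on GRCm38 and run 5′ to 3′ on the strand of each tRNA, with the anticodon in capitals and without the CCA tail.
mt-Ti: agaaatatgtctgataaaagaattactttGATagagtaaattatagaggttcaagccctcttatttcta
mt-Tq: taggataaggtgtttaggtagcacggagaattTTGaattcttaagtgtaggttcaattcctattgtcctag
mt-Tm: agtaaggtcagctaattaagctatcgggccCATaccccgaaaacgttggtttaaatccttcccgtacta

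*mt-Ti* is the gene at chrM:3706-3774 on the plus strand, *mt-Tq* that at chrM:3772-3842 on the minus strand and *mt-Tm* that at chrM:3845-3913 on the plus strand. The authors' table gives the same positions. Each gene is a single exon that makes up the whole tRNA. The tRNAs of isoleucine and methionine are part of the heavy-strand transcript, with the mRNAs on either side, and the tRNA of glutamine is part of the light-strand transcript. *mt-Ti* and *mt-Tq* meet tail to tail and share 3 bases on opposite strands, which are the last 3 bases of both tRNAs. A gap of 2 bases separates *mt-Tq* and *mt-Tm*, and *mt-Tm* abuts *mt-Nd2*. In the authors' annotation *mt-Nd1* abuts *mt-Ti*, while in GENCODE the genes share 2 bases. The authors counted reads by strand, so that reads of *mt-Tq* were separated from reads of its neighbours on the other strand.

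The anticodon is GAU in the isoleucine tRNA (positions 30 to 32 from the 5′ end), UUG in the glutamine tRNA (positions 33 to 35) and CAU in the methionine tRNA (positions 31 to 33). Each anticodon was placed at the site where the largest number of the 5 base pairs next to its loop could form. All 5 could form in each of the 3 tRNAs, which is therefore no separate check of the site. The 13 mitochondrial mRNAs hold 3790 codons in the GENCODE transcripts, of which 373 (9.84%) call for isoleucine, 81 (2.14%) for glutamine and 247 (6.52%) for methionine. Of the methionine codons, 217 are ATA and 30 are ATG, which the same tRNA reads. The genes are 69, 71 and 69 bases long for *mt-Ti*, *mt-Tq* and *mt-Tm*. GC content is 27.5% in *mt-Ti*, 36.6% in *mt-Tq* and 44.9% in *mt-Tm*, the highest of the 22 mitochondrial tRNA genes, whose median is 34.1%. Aligned in pairs, the genes are 58.7% identical for *mt-Ti* and *mt-Tq*, 50% for *mt-Ti* and *mt-Tm* and 53.9% for *mt-Tq* and *mt-Tm*. No other transcript among 141767 in GENCODE matched any of the 3 over at least 30 bases at 90% identity, and the longest exact matches were 18 bases for *mt-Ti*, 16 for *mt-Tq* and 15 for *mt-Tm*. Copies in nuclear DNA outside annotated transcripts were not searched.

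Values are normalised counts, that is reads per gene scaled by the size factor of the library. The authors' mean over all 8 libraries was 83.5 for *mt-Ti*, 1337 for *mt-Tq* and 206.1 for *mt-Tm*. Per base of gene length these are 1.21, 18.8 and 2.99 normalised counts, which placed *mt-Ti* 13th, *mt-Tq* 5th and *mt-Tm* 7th among the 22 mitochondrial tRNAs. The glutamine tRNA, with the fewest codons to serve of the 3, thus had the highest normalised counts in these libraries. How completely each tRNA was captured was not examined, so these counts do not give the relative amounts of the tRNAs in the heart. The 3 tRNAs made up 9.37% of the summed means of the 22 tRNAs and 4.65% of those of the 36 mitochondrial features.

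The flanking genes had lower levels per base than the 3 tRNAs between them. The authors' mean per base was 0.243 for *mt-Nd1* and 0.133 for *mt-Nd2*, of which short RNA libraries hold fragments only. The nearest tRNA upstream on the heavy strand, *mt-Tl1* for leucine, had 12.9 normalised counts per base, and the nearest downstream, *mt-Tw* for tryptophan, had 0.982. The rRNAs *mt-Rnr1* and *mt-Rnr2*, upstream on the same strand, had 1.93 and 6.03 per base. The level per base therefore did not follow position along the heavy-strand transcript. In the plot of levels by position, *mt-Tq*, which belongs to the light-strand transcript, is well above both neighbours.

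**Figure D1:**
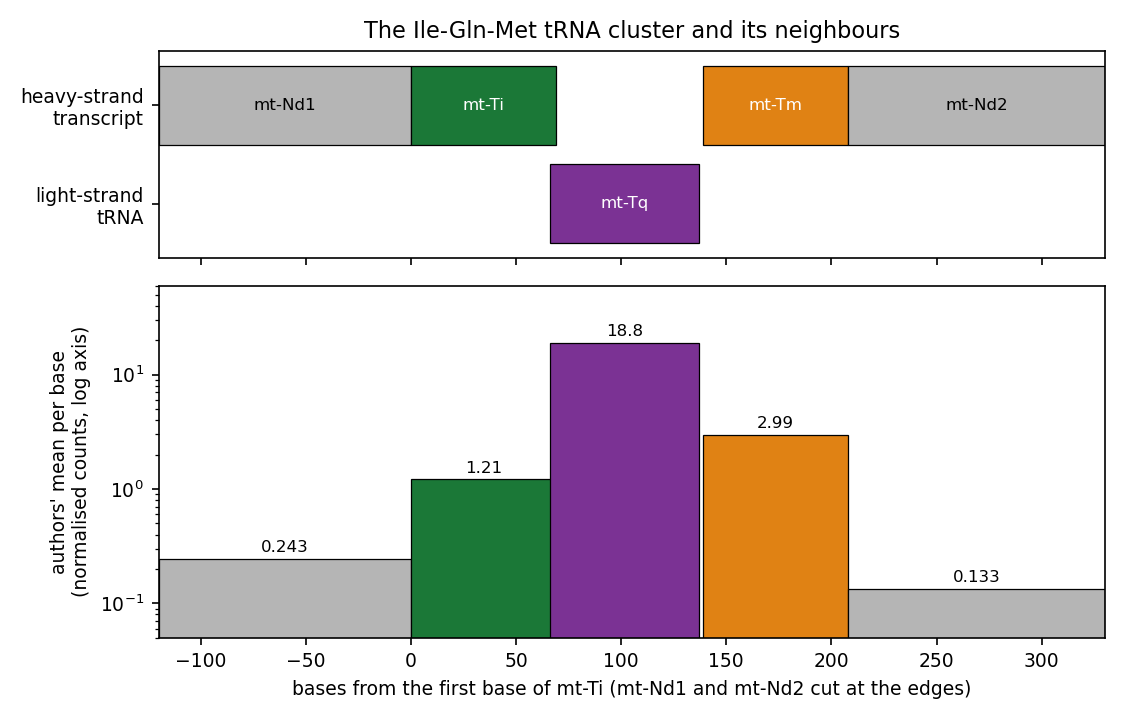
Position of the 3 tRNA genes on each strand, in bases from the start of *mt-Ti* (top), and the authors' mean over all 8 libraries per base of gene length, in normalised counts on a log axis (bottom). The bar of *mt-Tq* is the highest at 18.8, with 1.21 for *mt-Ti* and 2.99 for *mt-Tm*, and *mt-Nd1* and *mt-Nd2*, drawn in part, are at 0.243 and 0.133.

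The comparison of genotypes asks how loss of RNase H1 in the heart alters these tRNAs. The authors deposited a mean and a standard error (SE) per genotype for 23 short mitochondrial RNAs, namely the 22 tRNAs and the 7S RNA. The columns of single libraries name neither a library title nor a genotype, so values per library are not given here, no test was run, and whether single libraries of the genotypes overlap was not examined. Ratios of single tRNAs in the authors' scaling carry an SE propagated from the authors' SEs. Rescaled ratios and sums have none, since how the RNAs vary together between libraries was not examined.

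The isoleucine tRNA *mt-Ti* had an authors' mean of 7.52 ± 2.27 normalised counts in knockout and 159.6 ± 34.8 in wild type (authors' SE). The knockout mean was 4.71% ± 1.75 of wild type, a log2 ratio of -4.41 (SE 0.54). The difference was -152.1 (SE 34.8), and divided by its SE it was -4.36. The direction was the same under each of the scalings tried, and relative to the sum of the 23 short RNAs the log2 ratio was -1.84. The size of the ratio rests on a low knockout mean, and a pseudocount of 10 brought the log2 ratio to -3.27.

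The glutamine tRNA *mt-Tq* had an authors' mean of 420.9 ± 221.0 normalised counts in knockout and 2253 ± 329.4 in wild type. The knockout mean was 18.7% ± 10.2 of wild type, a log2 ratio of -2.42 (SE 0.79) in the authors' scaling that was 0.15 relative to the sum of the 23 short RNAs. The value of 0.15 has no SE of its own, and the SE of 0.79 belongs to the ratio before rescaling. No direction relative to that sum is therefore read from it. The difference was -1833 (SE 396.6), and divided by its SE it was -4.62. The knockout SE was 52.5% of the knockout mean, against 14.6% in wild type, so the level of this tRNA in knockout hearts is the least certain of the 3.

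The methionine tRNA *mt-Tm* had an authors' mean of 57.3 ± 14.3 normalised counts in knockout and 354.9 ± 48.7 in wild type. The knockout mean was 16.1% ± 4.60 of wild type, a log2 ratio of -2.63 (SE 0.41) in the authors' scaling that was -0.062 relative to the sum of the 23 short RNAs and 0.69 when *mt-Tv*, the valine tRNA, was left out of that sum. The value of -0.062 has no SE of its own either, so here too no direction relative to the sum of the 23 is read from it. The difference was -297.6 (SE 50.8), and divided by its SE it was -5.86.

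The intervals of 2 authors' SEs on either side of the mean did not overlap between the genotypes for any of the 3 tRNAs. For *mt-Ti* they ran over 2.98 to 12.1 normalised counts in knockout and 90.04 to 229.1 in wild type. For *mt-Tm* they ran over 28.7 to 85.9 in knockout and 257.5 to 452.3 in wild type. For *mt-Tq* the knockout interval reached below 0, up to 862.8, and the wild-type interval ran over 1595 to 2912. Of the 23 short RNAs, 22 (95.7%) had intervals apart in this way, the exception being *mt-Tv*, so this property is shared with nearly all of them. With 3 SEs, 16 of the 23 (69.6%) remained apart, all 3 tRNAs of the cluster among them.

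**Figure D2:**
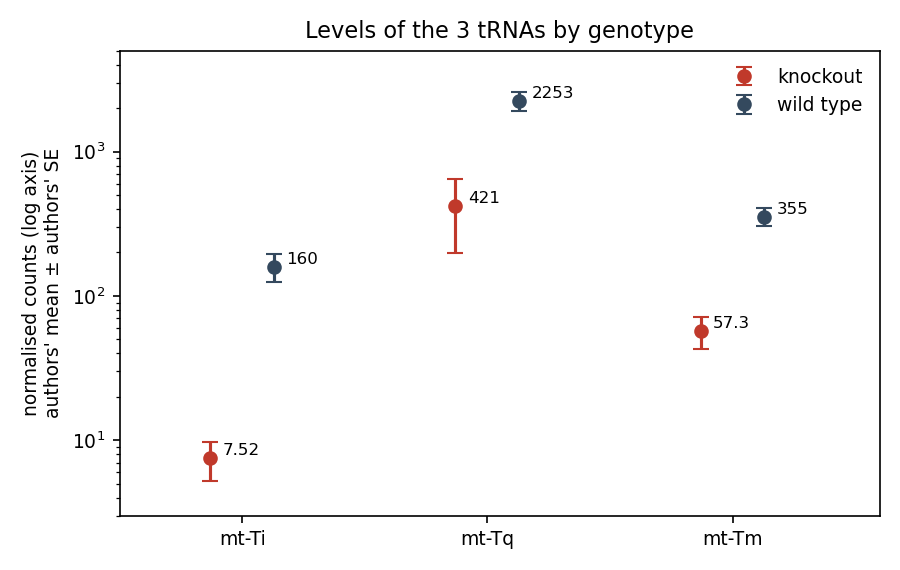
Authors' mean ± authors' SE of the 3 tRNAs in knockout (red, left) and wild type (blue, right), in normalised counts on a log axis. In the authors' scaling the knockout point is the lower of each pair, at 7.52 against 159.6 for *mt-Ti*, 420.9 against 2253 for *mt-Tq* and 57.3 against 354.9 for *mt-Tm*, while relative to other short mitochondrial RNAs the sign for *mt-Tq* and *mt-Tm* depends on the scaling.

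These directions depend on what the values are set against. The median log2 ratio of the 23 short RNAs was itself -3.52, and their summed level in knockout was 16.9% of that in wild type. Relative to that median, *mt-Ti* was at -0.89, *mt-Tq* at 1.10 and *mt-Tm* at 0.89. *mt-Tv* alone made up 48.3% of the sum of the 23 in knockout and 12.7% in wild type, and without it the sum in knockout was 9.98% of wild type. In bulk RNA, fewer cells or mtDNA copies and less RNA per cell or copy cannot be told apart.

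As shares of the 23 short RNAs, *mt-Ti* made up 0.127% in knockout and 0.455% in wild type, *mt-Tq* 7.12% in knockout and 6.43% in wild type, and *mt-Tm* 0.970% in knockout and 1.01% in wild type. The place of each tRNA by level among the 22 moved by at most 1. *mt-Ti* was 12th in knockout and 13th in wild type, *mt-Tq* was 4th in knockout and 5th in wild type, and *mt-Tm* was 7th in both. Within the cluster, *mt-Tq* supplied 86.7% of the summed level in knockout and 81.4% in wild type, *mt-Tm* 11.8% in knockout and 12.8% in wild type, and *mt-Ti* 1.55% in knockout and 5.77% in wild type. The sum of the 3 was 485.7 normalised counts in knockout and 2768 in wild type, or 17.5%, and it mainly follows *mt-Tq*.

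The 3 tRNAs were compared with each other in 3 pairs, which scaling does not alter, though a pseudocount does. *mt-Tm* exceeded *mt-Ti* 7.62-fold in knockout and 2.22-fold in wild type, and their log2 ratios of knockout to wild type differed by 1.78 (SE 0.68). *mt-Tq* exceeded *mt-Ti* 56.0-fold in knockout and 14.1-fold in wild type, a difference in log2 ratio of 1.99 (SE 0.95). *mt-Tq* exceeded *mt-Tm* 7.35-fold in knockout and 6.35-fold in wild type, a difference in log2 ratio of 0.21 (SE 0.89), which is less than its SE. These SEs assume that the tRNAs vary independently between libraries, which was not checked. The tRNAs of isoleucine and methionine, on 1 strand of the same precursor, thus differed more in their estimated ratios than those of methionine and glutamine, on opposite strands, and this contrast was not tested. A pseudocount of 10, which exceeds the knockout mean of *mt-Ti*, brought the 3 log2 ratios closer together. They were then -3.27 for *mt-Ti*, -2.44 for *mt-Tm* and -2.39 for *mt-Tq*.

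**Figure D3:**
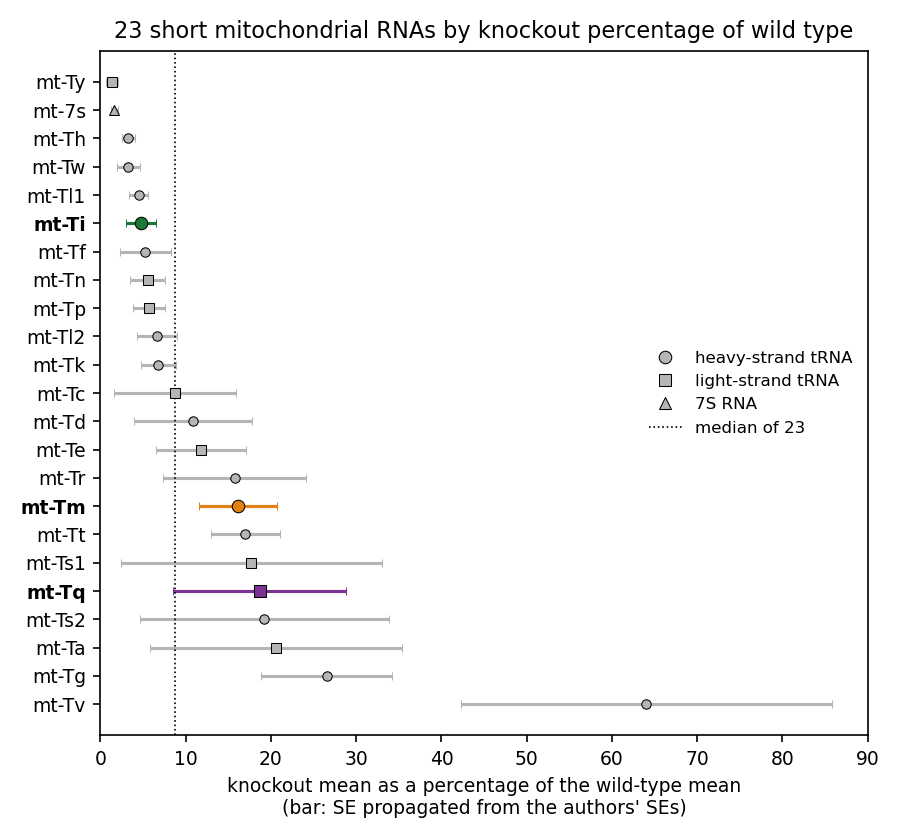
Knockout mean as a percentage of the wild-type mean for 23 short mitochondrial RNAs in the authors' scaling, with bars for the propagated SE and markers for the strand. *mt-Ti* (green) is at 4.71%, below the median of 8.72% (dotted line), and *mt-Tm* (orange) at 16.1% and *mt-Tq* (purple) at 18.7% are above it.

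In the order of the 22 tRNAs by percentage of wild type, counted from the lowest, *mt-Ti* was 5th, *mt-Tm* 15th and *mt-Tq* 18th. The median over the 22 was 9.79%, over the 14 heavy-strand tRNAs 8.83% (lowest *mt-Th* at 3.28%, highest *mt-Tv* at 64.0%) and over the 8 light-strand tRNAs 10.2% (lowest *mt-Ty* at 1.35%, highest *mt-Ta* at 20.6%). *mt-Ti* lay below the median of its strand and *mt-Tm* above it, and *mt-Tq* lay above the median of its own. These places depend on the weakly covered tRNAs, since among the 11 tRNAs with an authors' mean of at least 100, which leave out *mt-Ti*, the median was 16.1%, the value of *mt-Tm* itself, and *mt-Tq* lay at the 60th percentile. The features whose ratio was nearest to that of *mt-Ti* were *mt-Tl1*, at 4.48% ± 1.09, and *mt-Tf* for phenylalanine, at 5.25% ± 3.01. Nearest to *mt-Tm* were *mt-Tr* for arginine, at 15.8% ± 8.39, and *mt-Tt* for threonine, at 16.99% ± 4.02. Nearest to *mt-Tq* were the serine tRNAs *mt-Ts2*, at 19.2% ± 14.6, and *mt-Ts1*, at 17.7% ± 15.3. In each of these pairs the percentages differed by less than the SE of either tRNA, so that their order is not resolved. The knockout means of these nearest features were 82.7 for *mt-Tl1*, 0.983 for *mt-Tf*, 1.12 for *mt-Tr* and 6.77 for *mt-Tt*. Those of *mt-Ts2* and *mt-Ts1* were 1189 and 6.52. The ratios of *mt-Tf* and *mt-Tr* thus rest on very low counts, and those of *mt-Tt*, *mt-Ts1* and *mt-Ti* itself on knockout means below 10.

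Along the genome, the log2 ratios of next neighbours among the 22 tRNAs differed by a median of 1.90 over 21 pairs. *mt-Tl1* and *mt-Ti*, separated by *mt-Nd1*, differed by 0.07, the smallest of the 21, and *mt-Tl1* had an authors' mean of 82.7 ± 14.9 in knockout and 1845 ± 300.6 in wild type. *mt-Ti* and *mt-Tq* differed by 1.99 and *mt-Tq* and *mt-Tm* by 0.21, the second smallest. *mt-Tm* and *mt-Tw*, separated by *mt-Nd2*, differed by 2.298, and *mt-Tw* had an authors' mean of 4.18 ± 1.40 in knockout and 127.4 ± 29.3 in wild type. Among the 21 neighbour pairs, the tRNAs closest in their estimated ratios were therefore on both sides of *mt-Nd1*. Those on both sides of *mt-Nd2* had the 7th largest difference, somewhat above the median of 1.90. The SEs of their log2 ratios were 0.41 for *mt-Tm* and 0.59 for *mt-Tw*, so a difference from the median is not resolved. The difference of 0.07 is smaller than the SE of either log2 ratio, 0.35 for *mt-Tl1* and 0.54 for *mt-Ti*. That of 0.21 is smaller than its SE of 0.89, so the order of the closest pairs is not resolved.

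Over the 22 tRNAs, the log2 ratio had a Pearson correlation of -0.03 with GC content, -0.06 with gene length and 0.13 with the log2 level in wild type (Spearman 0.02, 0.08 and 0.15). These are descriptions over tRNAs that share the same libraries, and the level in wild type is also part of the ratio.

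Relative to its mean, the authors' SE was larger in knockout for all 3 tRNAs, as for all of the 23 short RNAs except *mt-Th* and *mt-Tp*. It was 30.2% in knockout and 21.8% in wild type for *mt-Ti*, and 24.98% in knockout and 13.7% in wild type for *mt-Tm*. For *mt-Tq* the ratio of the relative SEs given above was 3.59. The median over the 23 short RNAs was 32.6% in knockout and 15.5% in wild type. *mt-Tq* had the 6th highest relative SE in knockout, and 6 of the 23 exceeded 50%, of which 4 were among the 8 light-strand tRNAs and 2 among the 14 heavy-strand tRNAs. Their knockout means were 0.685 for *mt-Td*, 3.21 for *mt-Tc*, 6.52 for *mt-Ts1*, 38.0 for *mt-Ta*, 420.9 for *mt-Tq* and 1189 for *mt-Ts2*. A link of the relative SE to strand or to level was not tested. Whether 1 knockout library sets the SE of *mt-Tq* could not be seen from the means.

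**Figure D4:**
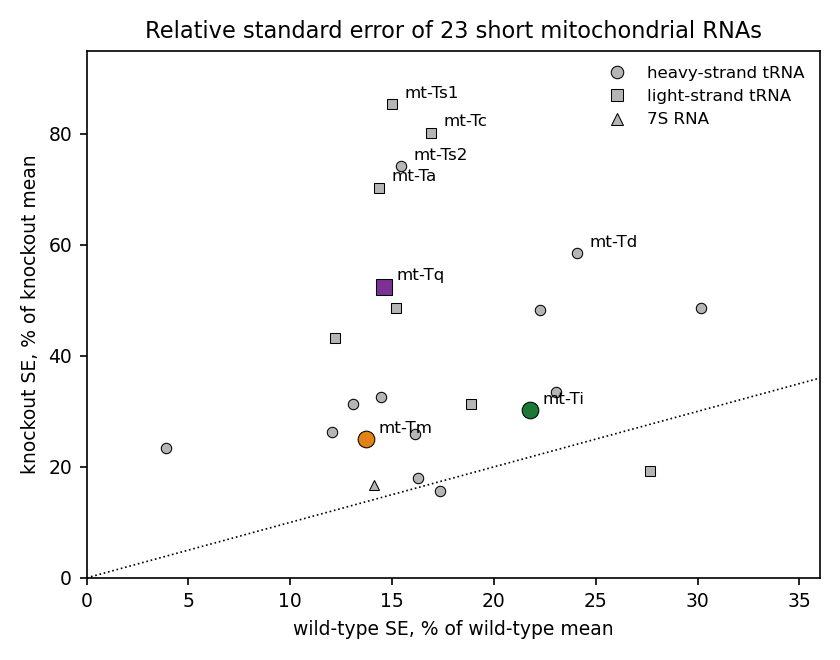
Authors' SE as a percentage of the mean in knockout (vertical axis) and wild type (horizontal axis) for 23 short mitochondrial RNAs, with the dotted line at equal values. *mt-Tq* (purple) lies at 52.5% in knockout and 14.6% in wild type, and *mt-Ti* (green) and *mt-Tm* (orange) lie nearer the line at 30.2% and 24.98% in knockout.

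The nuclear genes that charge, cut and modify these tRNAs had authors' means far below those of the 3 tRNAs. Of 21 names listed, 19 were in the table, 18 had an authors' mean over 0 and none reached 10. Of all 54531 features, 14456 had a mean over 0, with a median of 0.428 among those. Few of them reached 10, since *mt-Tf*, at 9.86, was 453rd by this mean. *Prorp* and *Mrpp3* were not found under these names, and no other name was tried. The highest were *Iars2*, which charges the isoleucine tRNA, at 2.80, and *Hsd17b10*, a subunit of mitochondrial RNase P, at 1.22. No difference between genotypes was examined for them, since values by genotype were used only for the 23 short mitochondrial RNAs. Short RNA libraries also hold only fragments of mRNAs.

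As a check on the tissue, all 8 cardiomyocyte markers had an authors' mean of at least 10 (36.8 to 662.2), against 3 of 4 fibroblast, 1 of 4 endothelial, 0 of 4 leukocyte, 1 of 4 erythroid and 1 of 3 hepatocyte markers. Hepatocytes were listed as an absent tissue, yet their highest marker, *Alb* at 22.7, exceeded the highest fibroblast marker, *Dcn* at 20.8. Means in this range therefore do not tell these cell types apart. *Rnaseh1* had an authors' mean of 0, so it gave no check of genotype. Mitochondrial features made up 4.25% of the summed means of all features.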

How the data were processed

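Short RNAs of 8 heart libraries were sequenced. Single-end reads were aligned by the authors to mm10 (Bowtie2 2.3.4.1), counted by strand with featureCounts 1.6.3 on an Ensembl GRCm38 annotation with mitochondrial genes of their own, and analysed with DESeq2 1.18.1 in R 3.5.1. The deposited values used here are a signal, read counts over a size factor per library, as the authors' mean over all libraries, and, for 23 mitochondrial features, the authors' mean and SE by genotype. A read that fits several places is placed at 1 of them by default, which can shift reads between near copies. The authors' fold changes, their SEs, test statistics, p-values, adjusted p-values and percentages of wild type were not used.

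The 8 columns of single libraries match no title and no genotype and were not used. The planned limma fit was therefore replaced by descriptions with no test, and the depth per library is not analysed here. The mean of both genotype means equalled the mean over all libraries. SEs of ratios, log2 ratios and differences were propagated to first order. Of these, only the SE of the ratio was tested on simulated data. No pseudocount or filter was applied. An interval is the mean with 2 SEs on either side. Genes named were the 3 tRNAs, their neighbours and rRNAs, the extremes of each strand, the 2 features nearest in log2 ratio to each, and the 2 highest of the nuclear list. Members and lists were chosen with earlier results of these data known. Alternatives were other scalings, pseudocounts, a filter on the mean, levels per gene and other match limits. Sequences came from GENCODE M21, whose positions equalled the authors' for 20 of 22 tRNAs, and were searched with BLAST 2.17.0 (word size 7). Python 3.11.15, numpy 2.4.6, pandas 2.3.3, scipy 1.17.1, Biopython 1.88 and matplotlib 3.10.9 were used.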

Additional observations from a re-analysis of the deposited data

How the results depend on the processing

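Scaling to the sum of the 23 short mitochondrial RNAs gave log2 ratios of -1.84 for *mt-Ti*, 0.15 for *mt-Tq* and -0.062 for *mt-Tm*. The other scalings were added after seeing the data. Scaling to the sum without *mt-Tv* gave -1.08 for *mt-Ti*, 0.90 for *mt-Tq* and 0.69 for *mt-Tm*, to the sum of the other 22 features -1.84, 0.16 and -0.063 in the same order, to the sum of the 22 tRNAs -2.09, -0.10 and -0.31, and centring on the median of the 23 gave -0.89, 1.10 and 0.89. A pseudocount of 10 gave -3.27 for *mt-Ti*, whose knockout mean lies below it, -2.39 for *mt-Tq* and -2.44 for *mt-Tm*. Each scaling shifts the log2 ratios of the 3 by the same or nearly the same amount, so a change of sign follows from the size of that shift, and no SE was computed for the rescaled values. The cause of the shifts was not tested. Levels per gene gave the same places as levels per base, and no match of 20 identical bases was found for any of the 3.

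No paired analysis was possible because the library columns carry neither genotype nor replicate number. For the same reason fits with a block, counts recovered for edgeR and fits leaving out each library were not run. Scaling to the rRNAs was not run, since no values by genotype were used for them, and matches were sought in transcripts instead of the genome. With a mean of at least 100, 11 tRNAs were left, without *mt-Ti*, at a median of 16.1% of wild type. *mt-Tm* was then at the median, against the 66.7th percentile of the 22 tRNAs, and *mt-Tq* was at the 60th, against the 81.0th. With 3 SEs in place of 2, 16 in place of 22 features had intervals apart.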
